A study of Caenorhabditis elegans with 2 samples.

Results

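In chromatin immunoprecipitation of NHR-76 from Caenorhabditis elegans larvae, 600 listed regions on the X chromosome were examined, all far from gene 5' ends. They were selected on their pooled signal, from 30000 listed regions of 324 bp each, which hold peaks and background together. The 5000 with the highest signal were taken, and 234 that overlap a tRNA, snoRNA or snRNA gene were dropped. Of the 4766 left, 895 lie on X, and 600 of these have their middle more than 1 kb from the 5' end of every protein-coding gene. A further 51 X regions at that distance were among those dropped for an RNA gene. Most of the 600 lay close to the lowest signal admitted, and 25 are in the deposited list of thresholded peaks.

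NHR-76 was profiled by ChIP-seq, in which DNA bound by a protein is pulled down with an antibody and sequenced. The material was whole L1 larvae, the first stage after hatching, of both sexes pooled, from strain OP203 (unc-119(ed3) III; wgIs203). This is a transgenic line that makes NHR-76 with GFP and FLAG at its C-terminus, and both libraries carry the unc-119(ed3) allele and the wgIs203 insertion. There are 2 libraries, biological replicates 1 and 2, in 1 group, so no condition is compared. The labels give no antibody beyond the name of the gene, no age within the stage, no promoter for the tagged protein and no word on separate cultures, so the spread between the libraries may be technical. Whole animals were used, so the cells behind a region's signal are not known.

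Nuclear hormone receptors are transcription factors, many of which are controlled by small lipophilic ligands, and nematodes have an unusually large family of them. NHR-76 is known for a role in fat loss driven by serotonin signalling. The X chromosome of this worm is also the target of dosage compensation: in hermaphrodites, which have a pair of X chromosomes, a condensin-containing complex loads at recruitment sites on X and lowers X-linked transcription. A short sequence with the core GCGCAGGG is known to be shared by many of these recruitment sites.

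The sequences of 6 of the strongest regions show what they share and where they differ. They are the 4 strongest that touch no exon, and the 4 strongest of those with GCGCAGGG that touch no exon, with the W02H3.3 and F20B6.9 regions in both sets. Each is named by the gene with the nearest 5' end and gives the 201 bases around the region's middle on the plus strand of ce11, which is the assembly WBcel235. Capitals mark GCGCAGGG, GCGAAGGG, or their reverse complements CCCTGCGC and CCCTTCGC; GCGAAGGG was added as a mark after the data had been seen. The ZK899.6 stretch is chrX:9465754-9465954, K02D3.1 chrX:13700767-13700967, W02H3.3 chrX:11094096-11094296, F20B6.9 chrX:4209202-4209402, F22H10.2 chrX:16681979-16682179 and Y41G9A.17 chrX:2997007-2997207.
ZK899.6: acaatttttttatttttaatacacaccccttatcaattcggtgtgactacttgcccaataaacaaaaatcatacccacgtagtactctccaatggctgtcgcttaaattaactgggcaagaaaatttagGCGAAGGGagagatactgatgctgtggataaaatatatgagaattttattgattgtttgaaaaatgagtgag
K02D3.1: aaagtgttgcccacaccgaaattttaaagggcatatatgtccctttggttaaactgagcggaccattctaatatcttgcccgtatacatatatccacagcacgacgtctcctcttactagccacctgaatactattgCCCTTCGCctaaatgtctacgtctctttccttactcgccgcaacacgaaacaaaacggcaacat
W02H3.3: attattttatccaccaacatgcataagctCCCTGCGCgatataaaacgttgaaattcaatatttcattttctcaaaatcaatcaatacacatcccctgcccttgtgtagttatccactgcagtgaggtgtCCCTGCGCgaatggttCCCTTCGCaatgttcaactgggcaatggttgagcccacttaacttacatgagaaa
F20B6.9: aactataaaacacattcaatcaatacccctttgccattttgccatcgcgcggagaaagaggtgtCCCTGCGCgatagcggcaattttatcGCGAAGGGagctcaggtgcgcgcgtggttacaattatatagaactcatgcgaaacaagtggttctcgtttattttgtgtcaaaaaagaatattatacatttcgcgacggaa
F22H10.2: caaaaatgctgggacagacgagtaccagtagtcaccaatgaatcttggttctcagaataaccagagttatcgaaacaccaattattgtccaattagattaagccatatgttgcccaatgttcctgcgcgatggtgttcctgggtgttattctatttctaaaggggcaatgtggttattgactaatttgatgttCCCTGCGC
Y41G9A.17: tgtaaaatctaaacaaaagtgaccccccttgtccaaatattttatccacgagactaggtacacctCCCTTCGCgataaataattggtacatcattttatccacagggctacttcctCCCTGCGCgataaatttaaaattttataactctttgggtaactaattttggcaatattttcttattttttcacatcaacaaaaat

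Stretches from 5 of the 6 lie between genes, and the Y41G9A.17 stretch lies in an intron of that gene. The W02H3.3 stretch holds 2 copies of the core, F20B6.9, F22H10.2 and Y41G9A.17 hold 1 copy each, and ZK899.6 and K02D3.1 hold none. The GC content of the stretches ran from 33.8% in Y41G9A.17 to 44.3% in K02D3.1.

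Of the 9 most strongly marked regions with the core, the other 5 touch an exon or rank lower, and their copies are given as 24 bases read along the strand of the core, which is in capitals. They lie at mom-1, in pks-1 (named after the nearest 5' end, C41A3.2), in F19H6.6 (named after F19H6.5), upstream of xol-1 and near gtr-1.
mom-1, first copy: tacatttgGCGCAGGGggtcacca
mom-1, second copy: taggtatcGCGCAGGGaagattta
C41A3.2: taaatttaGCGCAGGGaggacgcc
F19H6.5: agttatagGCGCAGGGtcttgagg
xol-1, first copy: tttttatcGCGCAGGGacgtatgt
xol-1, second copy: tttccatcGCGCAGGGaacccttc
gtr-1, first copy: cgattatcGCGCAGGGgtgtttgt
gtr-1, second copy: accgatacGCGCAGGGaaaaaaaa

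The base before the core was C and the base after it A in many of these copies. Over all 17 copies in the 600 regions, C stood before the core in 11 (64.7%), against 22 of the 64 other copies on X (34.4%) and 44 of the 233 autosomal copies (18.9%). A stood after it in 13 of 17 (76.5%), against 21 of 64 (32.8%) and 79 of 233 (33.9%). TC stood before it in 9 of 17 (52.9%), 10 of 64 (15.6%) and 6 of 233 (2.58%). These shares are descriptions of single genome copies, with no test.

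The pooled signal, which chose the regions, is the caller's own value, and it is given here as a description. It ran from 13.99 to 89.12 with a median of 16.14, so most of the 600 lay close to the lowest value admitted. Of them, 25 are among the 248 peaks of the deposited thresholded list, which holds 0.827% of the pooled list and 54 peaks on X. These 25 had signals from 31.14 to 89.12 and a median of 54.85. A q-value, the false discovery rate the caller attached to a region, was at or below 0.05 for 66 of the 600, beside 2.32% of the pooled list. The rule used the same pooled reads, so nothing is read from these counts.

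The values just inside and just outside the limits of the rule are as follows. The last regions inside the rank limit, at toca-1 and gcy-11, ranked 4988 and 4989, and both had a signal of 13.99. Just outside, the region at dct-1 ranked 5001 with 13.98, and that at F47F2.3 ranked 5013 with 13.97. At the distance limit, the inx-2 region lay 1001 bp from the nearest 5' end with a signal of 18.94 and the fbxb-58 region 1007 bp with 66.34. The C36B7.5 region at 990 bp, signal 16.72, and the ipp-5 region at 995 bp, signal 14.96, fell just outside. Among the strongest regions on X 67% lay this far from 5' ends, beside 69.1% of the X regions outside the strongest and 71.1% of all bases of X.

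To read the libraries side by side, each library's signal was divided by the median of its own 30000 listed regions, which was 6.504 in replicate 1 and 6.068 in replicate 2. A value of 1 is thus an ordinary listed region, and a region that a library did not list has no value there. Each value is of the single region in that library's list that overlaps with the highest signal. The libraries also make up the pooled reads, so these values are a description of the members and not a separate check.

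The strongest of all was the region downstream of ZK899.6 at chrX:9465692-9466015, between genes and 2509 bp from the nearest 5' end. Its signal was 7.74 times the median region in replicate 1 and 7.33 times in replicate 2, 7.54 ± 0.294 (SD, n = 2 libraries). The region upstream of K02D3.1 at chrX:13700705-13701028, 6040 bp from that gene, stood at 6.35 and 7.73 times. Both regions were far above the ordinary region in each library. The spread between the libraries was wider at K02D3.1, with an SD of 0.974, than at ZK899.6.

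The region in an intron of mom-1 at chrX:6296359-6296682 stood at 6.30 times the median in replicate 1 and 6.67 in replicate 2. The gene mom-1 encodes a Porcupine-type enzyme that Wnt ligands need for their secretion, and the region lies 3409 bp downstream of its 5' end. The intergenic region between F20B6.9 and the 3' end of hpk-1, a homeodomain-interacting protein kinase gene, lies at chrX:4209140-4209463 and stood at 6.97 and 6.42 times. Near W02H3.3, at chrX:11094034-11094357, the values were 7.82 and 5.17 times, a wider spread. At C41A3.2 they were 4.83 and 6.68 times, and that region, chrX:5429323-5429646, lies inside a coding exon of pks-1, a very large polyketide synthase gene.

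Other strong regions differed more between the libraries. The F19H6.5 region at chrX:12362959-12363282, in the 3' untranslated exon of F19H6.6, was the highest of all 25 in replicate 1 with 7.92 times the median but stood at 2.53 times in replicate 2. The F22H10.2 region, chrX:16681917-16682240, had 5.28 and 2.83 times. The region 4979 bp upstream of xol-1, chrX:8036172-8036495, had 5.60 in replicate 1 and 2.67 in replicate 2. The gene xol-1 is the early switch that sets both sexual fate and dosage compensation according to the number of X chromosomes. In these 3 regions the value in replicate 1 was the higher, and each still lay well above an ordinary region in both libraries.

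Among the rest of the 15 strongest the spread between the libraries varied. The gtr-1 region at chrX:806512-806835 had 3.78 times the median in replicate 1 and 3.65 times in replicate 2, and the C30E1.4 region 5.31 and 5.43 times. The fbxb-58 region, near an F-box gene, had 4.38 and 6.60 times, T27A8.7 5.91 and 6.62, F55G7.5 6.02 and 4.79, and Y41G9A.17 3.97 and 5.09. Replicate 1 was the higher in 8 of the 15 and replicate 2 in 7.

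The other 10 regions of the thresholded list lie between genes, in introns or in exons of non-coding genes. The region 4427 bp upstream of dlg-1, a gene for a scaffold protein of epithelial junctions, lies in an exon of a non-coding gene and had 3.26 and 3.86 times the median region. A region in an intron of abts-4, an anion transporter gene, has mdl-1, a Mad-like transcription factor gene, as the nearest by 5' end and had 2.09 and 4.41 times. The region 2738 bp upstream of mxl-3, which encodes a Max-like transcription factor, had 3.94 and 2.30 times, and that at F52G3.1 had 2.09 and 4.93 times. Over all 25, the median was 4.38 times in replicate 1, range 1.81 to 7.92, and 4.41 times in replicate 2, range 1.64 to 7.73. The ratio of the higher to the lower library ran from 1.02 to 3.14 with a median of 1.34.

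**Figure D1:**
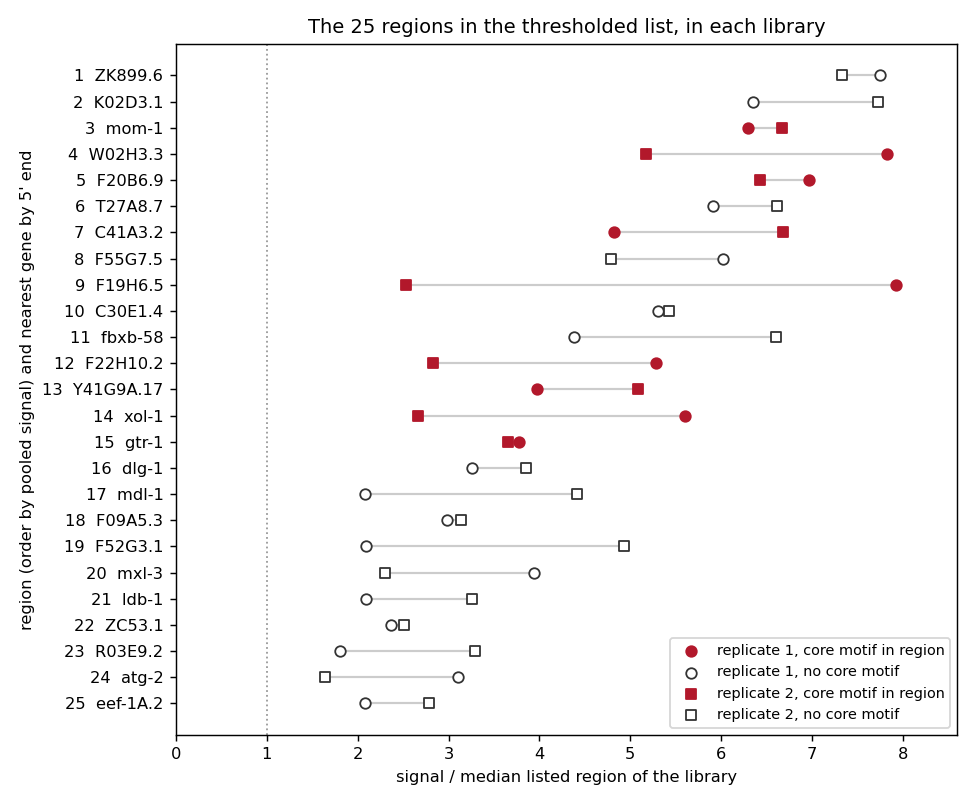
Each row is 1 of the 25 regions in the deposited thresholded list, in order of pooled signal, and the x axis gives its signal in each library as a multiple of that library's median listed region. Circles are replicate 1, squares replicate 2, and filled symbols mark regions that hold the core GCGCAGGG; all symbols lie to the right of the dotted line at 1, and the 9 filled rows are all among the first 15.

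The same regions were not all strong in both libraries once the whole set is considered. Of the 600, 255 (42.5%) were overlapped by one of the 5000 strongest of replicate 1, where 15.9% of all pooled regions were, and 273 (45.5%) by one of the 5000 strongest of replicate 2, beside 15.5%. These counts share the reads that chose the regions, and all pooled regions include those below the rank limit. The like shares over the 5000 strongest pooled regions were not counted. In both libraries 78 regions (13%) met this, in 1 library 372 (62%) and in neither 150 (25%). These joint shares were not counted over all pooled regions, so they are not read as a trait of the far X regions. All 25 regions of the thresholded list met it in both. That list was itself derived from the lists of both libraries, so this is no separate check. Of the 600, 1 was listed in neither library at all. A q-value at or below 0.05 was given to 70 (11.7%) in replicate 1, beside 2.65% of its list, and to 156 (26%) in replicate 2, beside 6.68%. Those lists likewise hold regions of every rank.

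A reading that did not share reads was made by choosing regions in 1 library alone and looking them up in the other. The rule applied to replicate 1 gave 624 regions, of which 84 were overlapped by one of the 5000 strongest of replicate 2, 13.5% (95% Wilson interval 11.0 to 16.4%). Over all regions of replicate 1 the share was 7.27%, and over lower-ranked X regions at this distance 5.15% (167 of 3243). Over all 5000 strongest regions of either library, wherever they lie, 801 were found in the other, 16% (15 to 17.1%), which is above the share of the far X regions in both directions although the intervals overlap. Chosen in replicate 2, 85 of 615 were found in replicate 1, 13.8% (11.3 to 16.8%), beside 7.45% of all its regions. X regions near 5' ends had 17.5% (54 of 308) and 18.8% (55 of 293), and autosomal regions far from 5' ends 11.4% (252 of 2219) and 11.6% (261 of 2247). The intervals cover counting error only, and both libraries were set against the same control file, whose part in the overlap was not tested.

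The shared regions were concentrated at the top of each list. Among ranks up to 250 in replicate 1, 21 of 24 far X regions (87.5%, interval 69.0 to 95.7%) were found in replicate 2. The share was 22 of 92 (23.9%) for the next ranks to 1000, 26 of 200 (13%) to 2500 and 15 of 308 (4.87%) to 5000. That last share lay below the 7.27% over all regions. From replicate 2 to replicate 1 the shares in the same order were 17 of 21 (81%), 24 of 87 (27.6%), 19 of 199 (9.55%) and 25 of 308 (8.12%). In the top ranks, autosomal regions far from 5' ends had 37 of 62 (59.7%, 47.3 to 71.0%) and 31 of 53 (58.5%, 45.1 to 70.7%), and X regions near 5' ends 12 of 21 (57.1%, 36.5 to 75.5%) and 16 of 23 (69.6%, 49.1 to 84.4%). The intervals of the far X regions overlap those of these other sets, and no test of the difference was made.

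**Figure D2:**
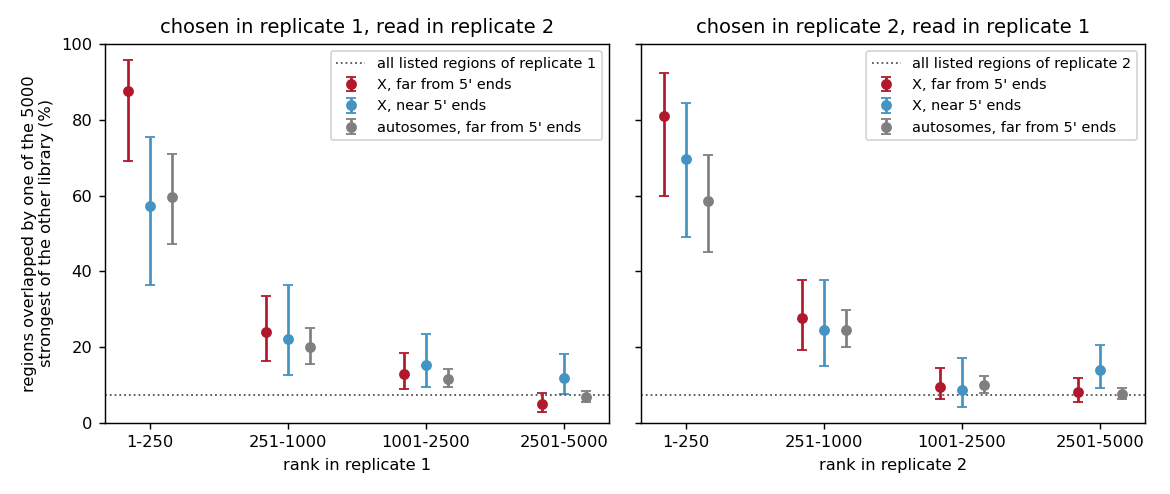
The y axis gives the share of regions chosen in 1 library that one of the 5000 strongest of the other library overlaps, against rank in the first library; points are shares, bars 95% Wilson intervals, and the dotted line the share over all listed regions. In red, far X regions go from 87.5% at the top ranks to 4.87% at the lowest ranks of replicate 1, and from 81% to 8.12% in replicate 2.

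The core GCGCAGGG was searched on both strands of each whole region and occurred in 13 of the 600, 2.17% (1.27 to 3.67%), beside 0.207% of all pooled regions. It was in 6 of 295 X regions near 5' ends (2.03%), in 3 of 2111 autosomal regions far from 5' ends (0.142%) and in 7 of 3221 lower-ranked far X regions (0.217%). In 38593 windows of the same width over the far bases of X it was in 54 (0.14%). The rule for the regions used no sequence, although it used the limit to X. The sequences to search were chosen with earlier results of these data known, so the shares are descriptions. The share in the 600 thus had an interval above the intervals of the autosomal and the lower-ranked regions, and was close to that of X regions near 5' ends.

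The core was most frequent at the top pooled ranks, which is a description, since the pooled signal also chose the regions. It was in 9 of the 25 far X regions ranked up to 250 (36%, 20.2 to 55.5%), in 3 of 73 ranked to 1000 (4.11%), in 1 of 165 ranked to 2500 (0.606%) and in none of 337 ranked to 5000, for which the interval reaches 1.13%. All 9 lay among the 15 strongest, a number set apart after the values were seen. At ranks up to 250 it was in 3 of 17 X regions near 5' ends (17.6%, 6.19 to 41.0%) and in none of 49 autosomal regions far from 5' ends, for which the interval reaches 7.27%.

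**Figure D3:**
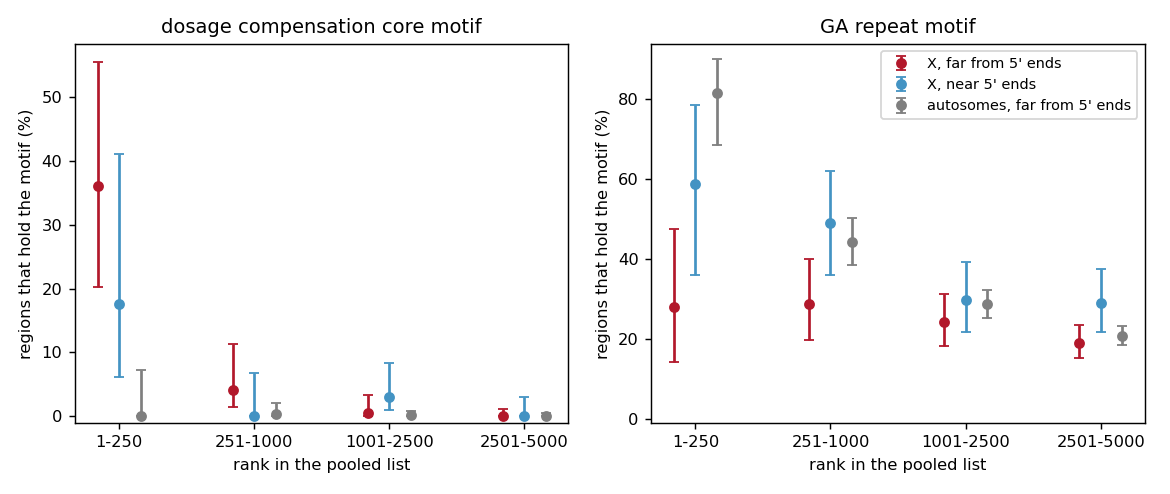
Share of regions that hold the dosage compensation core motif GCGCAGGG (left) or GAGAGA (right) against rank in the pooled list, for far X regions, near X regions and far autosomal regions; points are shares and bars 95% Wilson intervals, with a different y scale in each panel. At ranks up to 250 the far X regions stand highest for the core, at 36%, and lowest for GAGAGA, at 28%.

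Regions with the core were seen in both libraries when each was used alone. Of the 14 far X regions chosen in replicate 1 with the core, all 14 were among the 5000 strongest of replicate 2, against 70 of 610 without it (11.5%). Of the 14 chosen in replicate 2, 13 were found in replicate 1, against 72 of 601 (12%). The core regions are also high in rank, so rank and core cannot be told apart in these counts.

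The 13 regions hold 17 copies, and 4 of them, at mom-1, W02H3.3, xol-1 and gtr-1, hold more than 1. Copies lay a median of 76.5 bp from the region's middle, 13 of 17 within 100 bp and the farthest 134.5 bp away. The middle is the position the list gives for every region, not a fitted summit. The 4 core regions outside the thresholded list were weaker. A second region at F20B6.9 had 1.86 times the median in replicate 1 and 3.31 in replicate 2, T26C11.2 1.47 and 2.22, and B0302.2 1.68 and 1.67. The region at nhr-173, a nuclear receptor gene, stood at 0.846 and 1.01 times, no higher than an ordinary listed region.

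**Figure D4:**
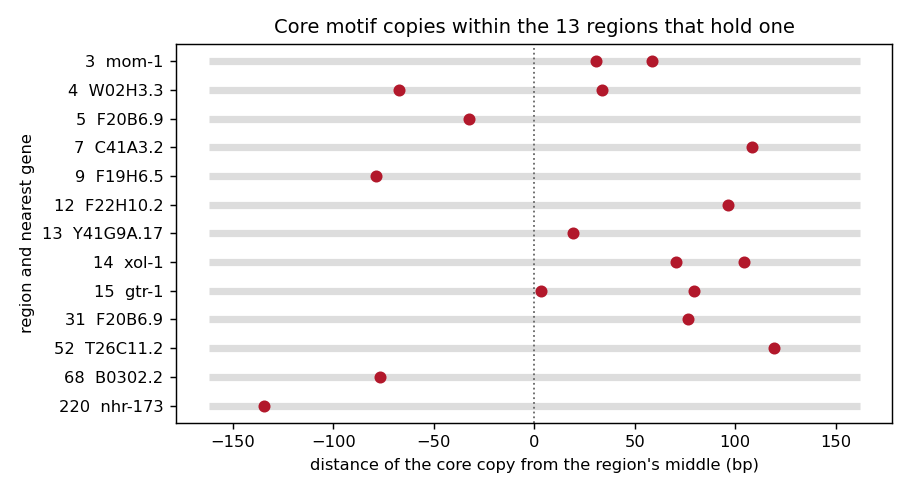
Each grey bar is 1 of the 13 regions that hold the core, drawn from end to end and labelled by its order of pooled signal and its nearest gene; dots mark the 17 core copies by their distance in bp from the region's middle. The copies lie on both sides of the middle, 13 of them within 100 bp, and 4 regions carry a pair.

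Seen from the genome, X holds 81 copies of the core (4.57 per Mb) and the autosomes 233 (2.82 per Mb). Of the X copies, 24 (29.6%) lie inside one of the 5000 strongest pooled regions, 16 inside a peak of the thresholded list and 17 inside the 600 far regions. Of the autosomal copies 11 (4.72%) lie inside one of the 5000 strongest. Those regions cover 1.75% of X and 1.58% of the autosomes. Most X copies, 51 of 81, lay wholly inside no region of the pooled list.

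The other 8 sequences searched gave mixed results. GAGAGA, a repeat of GA found in many worm promoters, was in 132 (22%, 18.9 to 25.5%), beside 34.6% of X regions near 5' ends, 27.5% of autosomal far regions and 17% of lower-ranked far X regions. At ranks up to 250 it was in 7 of 25 far X regions (28%, 14.3 to 47.6%) and in 40 of 49 autosomal far regions (81.6%, 68.6 to 90.0%), so the intervals of these sets do not overlap there. CACGTG, the E-box bound by many basic helix-loop-helix factors, was in 42 (7%), beside 4.97% of lower-ranked regions and 9.24% of autosomal far ones. In far X regions its share was 16% at ranks up to 250 (4 of 25), 15.1% to 1000, 7.88% to 2500 and 4.15% to 5000. At the same ranks autosomal far regions had 14.3%, 10.6%, 9.02% and 8.83%. X regions near 5' ends had 5.88%, 17%, 4.95% and 1.61%.

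AGGTCA, the half-site read by many nuclear receptors, was in 64 of the 600 (10.7%, 8.44 to 13.4%). Its share was 11.2% in X regions near 5' ends, 9.19% in autosomal far regions, 9.5% in lower-ranked far X regions and 8.78% in all pooled regions, and it was in 2 of the 25 strongest. The related AGTTCA was in 22.2%, beside 23.6% of lower-ranked regions and 20.4% of all. TGATAA, which contains the GATA sequence read by GATA factors such as those of the intestine, was in 28.2%, beside 28.9% and 27.2%. None of these 3 shares had an interval apart from that of the lower-ranked far X regions. GGGCGG was in 5.67% (lower-ranked 4.1%), TGTTTAC, a forkhead-type sequence, in 4.5% (5.25%), and a run of 8 A in 20.3% (27%). The X windows had shares of 8.32% for AGGTCA, 22.5% for AGTTCA, 28.2% for TGATAA, 3.75% for GGGCGG, 14.2% for GAGAGA, 4.2% for CACGTG, 4.94% for TGTTTAC and 32.7% for the run of A.

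GC content was 39.3% ± 5.89 (SD over 600 regions), beside 36.7% ± 5.65 in the 3221 lower-ranked far X regions and 37.7% over the pooled list. It was 42.0% ± 6.76 in the 25 of the thresholded list. In the 13 regions with the core it was 37.5% ± 4.47 and in the 587 without it 39.3% ± 5.91, a difference smaller than the spread within either set. GC content also differs between the sets compared above, and its part in the motif shares was not tested.

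By their middle, 226 of the 600 (37.7%, 33.9 to 41.6%) lie between genes. In introns of protein-coding genes lie 174 (29%), in coding exons 133 (22.2%), in exons of non-coding genes 37 (6.17%), in 3' untranslated exons 23, in 5' untranslated exons 4 and in introns of non-coding genes 3. Lower-ranked far X regions had 36% between genes, 31.3% in introns, 23.3% in coding exons and 4% in non-coding exons. Bases of X this far from 5' ends had 40.4%, 31.2%, 19.1% and 3.64%. The shares of the 600 lay near those of the lower-ranked regions except in non-coding exons, where their interval, 4.51 to 8.38%, lies above the share of bases and overlaps that of the lower-ranked regions, 3.38 to 4.74%.

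The strongest regions were placed differently in part. Between genes lay 15 of the 25 regions of the thresholded list (60%, 40.7 to 76.6%) and in coding exons 1 (4%, 0.71 to 19.5%), beside 36% and 23.3% of the lower-ranked far X regions. The intervals do not overlap in either class, and no test was made. Against bases of X this far from 5' ends the contrast was smaller. Those had 40.4% between genes, just under the lower bound for the 25, and 19.1% in coding exons, inside their interval. Autosomal far regions had 27.3% between genes and 32.2% in coding exons. The coding exon region is that of pks-1. The next strongest in coding exons, at rsd-3, a gene needed for the spread of silencing RNA, was listed in replicate 2 alone with 3.46 times the median, and the third, in Y102A11A.3, had 2.47 and 1.81 times.

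**Figure D5:**
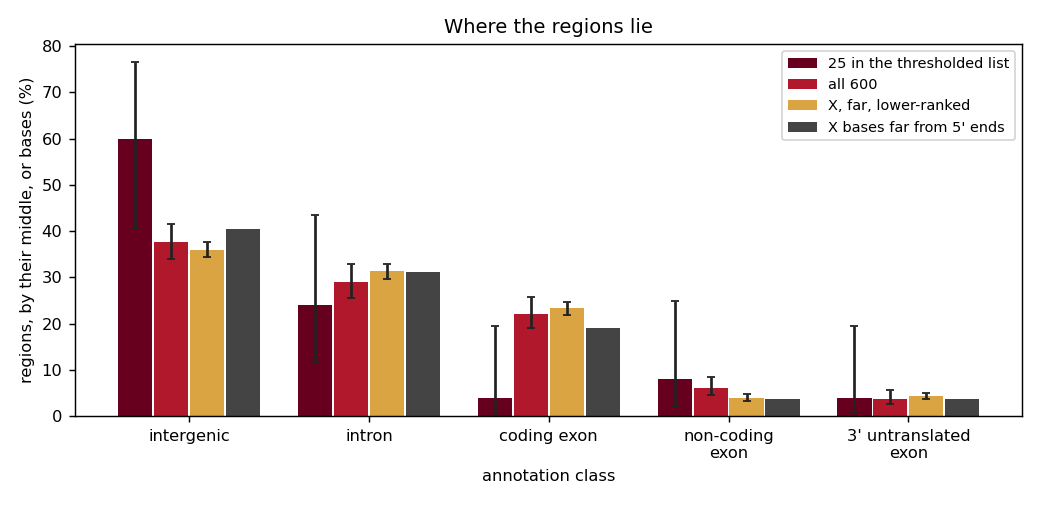
Share of regions by the annotation class of their middle, for the 25 regions of the thresholded list, all 600, lower-ranked far X regions, and all X bases far from 5' ends; error bars are 95% Wilson intervals, and the bases have none. The 600 lie close to the lower-ranked regions in most classes, with 6.17% against 4% in non-coding exons, while the 25 have 60% between genes and 4% in coding exons.

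The distance to the nearest protein-coding 5' end, which the rule used, had a median of 2670 bp and reached 38922 bp. It was over 2000 bp in 390 (65%), over 5000 bp in 128 (21.3%) and over 10000 bp in 31 (5.17%), beside 68.4%, 21.4% and 3.94% of the lower-ranked far X regions. The region lay upstream of that 5' end in 253 (42.2%) and downstream in the others. Of the 226 between genes, 122 lay between genes in tandem, 81 between divergent and 23 between convergent genes, shares of 54%, 35.8% and 10.2% beside 55.4%, 35.9% and 8.71% of the lower-ranked. Within 500 bp of a protein-coding 3' end lay 63 (10.5%), beside 12.9%.

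Small and non-coding RNA genes were met by some. An annotated non-coding RNA gene overlapped 68 (11.3%), beside 6.83% of lower-ranked far X regions. MicroRNA genes lay within 1 kb of 7 (1.17%), beside 0.714%. The strongest of these, at chrX:13145248-13145571 in an intron of F09A5.3, lies 316 bp from mir-54, 486 bp from mir-55 and 623 bp from mir-56, a cluster of the mir-51 family, which is needed in embryos. It stood at 2.99 times the median in replicate 1 and 3.14 times in replicate 2. A weaker region in the same intron, 146 bp from mir-56, was listed in replicate 2 alone at 2.45 times. The region 106 bp from mir-239b and 940 bp from mir-239a had 1.86 and 0.993 times, and that 935 bp from mir-787, in an intron of the innexin gene inx-2, 1.10 and 1.46 times. The mir-54 to mir-56 region was thus the only one of the 7 near a microRNA gene that belongs to the thresholded list.

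Non-coding exons also held strong regions near eef-1A.2, a gene for translation elongation factor 1A, at 2.08 and 2.78 times the median, and in kin-20, a casein kinase 1 gene of the developmental timing pathway, at 2.81 and 2.03 times. In 5' untranslated exons the strongest was in alg-1, which encodes an Argonaute protein of the microRNA pathway, listed in replicate 2 alone at 2.84 times. It was followed by rme-4 at 1.62 and 2.53 times and by smex-2, in replicate 2 alone at 2.37 times. In 3' untranslated exons F52D10.2 with 2.19 and 1.32 times and F57G12.1 with 2.24 and 2.43 times came after F19H6.6. In introns of non-coding genes, the core region near T26C11.2 was followed by a region in R106.8, nearest to npr-24, in replicate 1 alone at 2.04 times. Next came a region in CE7X_3.2, 38922 bp from the 5' end of Y73B3A.1, in replicate 2 alone at 1.21 times.

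A copy of a stretch elsewhere in the genome can draw reads that belong to another place. A stretch of 50 bases with an exact second match in the genome occurred within 9 of the 600 (1.5%), beside 2.79% of the lower-ranked far X regions and 2.32% of the autosomal far ones. The ZC53.1 region, of the thresholded list, and the kin-20 and Y73B3A.1 regions were among the 9. None of the 13 core regions was.

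The regions were spread along all of X. Full megabases held 26 to 40 of them with a median of 35, or 33.9 per Mb of the whole chromosome. Neighbouring middles lay a median of 17986 bp apart, 31 of the 599 gaps were under 1 kb, and the largest was 301436 bp. Merging the 10 regions that overlap another left 595 separate stretches. The 25 regions of the thresholded list lay a median of 533340 bp apart, from chrX:806674 to chrX:16961537.

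As nearest gene by 5' end or as the gene around the region, 538 of the 2731 protein-coding genes of X (19.7%) had one of the 600. Among families grouped by gene name the share was 11 of 23 for nuclear receptors, 4 of 21 for homeobox genes, 6 of 34 for neuropeptides, 5 of 27 for ligand-gated channels, 2 of 12 for potassium channels, 2 of 30 for collagens with lon-2, 2 of 10 for P-glycoproteins and 1 of 2 for cytosolic ribosomal proteins. MicroRNA genes, counted by another measure, within 1 kb of a region's middle, numbered 10 of 74. The 19.7% does not apply to them. Among the 10, mir-54, mir-55, mir-55b and mir-56 lie by the same regions. Genes with long surroundings offer more far sequence, so each family was also read by territory. Nuclear receptors were the nearest gene for 14 of the 600 (2.33%), for 1.86% of lower-ranked far X regions and for 1.3% of the far bases. For homeobox genes the same shares were 0.667%, 0.807% and 0.862%, for neuropeptides 1.17%, 1.37% and 1.49%, and for collagens 0.333%, 0.497% and 0.556%. P-glycoproteins had 0.667% (4 of the 600), 0.373% and 0.492%, ligand-gated channels 0.833%, 0.869% and 1.08%, potassium channels 0.333%, 0.776% and 0.582%, and ribosomal proteins 0.167% (1 region), 0.0621% and 0.0376%. No family was tested.

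Among nuclear receptor genes the strongest region lay 9400 bp upstream of nhr-1, at 2.00 times the median in replicate 1 and 1.54 in replicate 2. A region in an intron of nhr-3 had 1.67 and 2.24 times, and one 1247 bp upstream of nhr-40 had 1.63 and 1.02 times. A region in a coding exon within the spans of both nhr-27 and pgp-12, a P-glycoprotein transporter gene, was listed in replicate 1 alone at 2.57 times. Another, in a coding exon within the spans of pgp-14 and nhr-27, had 0.743 and 1.74 times. Which gene each exon belongs to was not resolved. None of the nuclear receptor regions belongs to the thresholded list.

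In the homeobox and neuropeptide lists, the strongest regions had these values. The Pax6 gene vab-3 had one in an intron at 1.42 and 0.892 times the median, the POU homeobox gene ceh-18 at 1.47 and 1.22, the LIM homeobox gene ttx-3 at 1.11 and 1.01, and ceh-1 at 1.17 and 1.02. Among neuropeptide genes, flp-18 had 1.17 and 2.60 times, nlp-64 1.09 and 2.05, nlp-61 1.27 and 1.49, and nlp-53 1.53 and 0.989. Replicate 1 was the higher in all 4 homeobox regions and replicate 2 in 3 of the 4 neuropeptide regions.

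Channel genes were similar. The potassium channel genes slo-2 and twk-17 had 1.22 and 1.70 times the median, and 1.61 times in replicate 2 alone. Of the ligand-gated channel genes, lgc-24 had 1.40 and 1.06 times, acr-8, an acetylcholine receptor subunit, 1.57 and 0.762, and lgc-32 and glr-6, a glutamate receptor subunit, were listed in replicate 1 alone at 0.773 and 1.48 times. The collagen gene col-185 had 2.16 and 1.69 times, lon-2, a glypican gene that limits body length, 1.34 and 1.40, and the ribosomal protein gene rpl-25.1 0.946 and 1.83 times. For comparison, the median of the 600 was 1.43 times in replicate 1 and 1.5 times in replicate 2 over the regions each listed.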

How the data were processed

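The data are region lists of 2 ChIP-seq libraries of 1 group. Per the library listings, the authors derived each library's list from its alignments and the same control file, the pooled list from both libraries and the thresholded list from these. The deposited signal is the peak caller's value for a region, and the deposited −log10 q-value was converted to a q-value. Caller, aligner, thresholds and read numbers are not stated in the labels or listings, so the depth is unknown and the 95% Wilson intervals cover counting error only. Coordinates are 1-based on ce11, with genes of Ensembl release 115. Regions shared at least 1 bp to count as overlapping. No test between groups was possible with 1 group. The code was checked on planted data, with Python 3.11.15, numpy 2.4.6 and pandas 2.3.3.

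The regions and the gene and motif lists were chosen with earlier results of these data known. Genes named are those of the 20 strongest regions, the strongest 3 of each location class, the strongest 6 with GCGCAGGG, up to 4 per gene list and those nearest to the limits. The other regions of the thresholded list, the weaker core regions, pgp-14 and the second matches of kin-20 and Y73B3A.1 were named after their values were seen. Windows of equal width on X had their middle over 1 kb from 5' ends.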

Additional observations from a re-analysis of the deposited data

How the results depend on the processing

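Of 61 alternative values, 40 stayed within the error of the reported value or within 1.5 times the count, and 21 moved. Taking the 2500 strongest regions left 263 regions, a median distance of 2607 bp, a mean GC of 40.4%, GCGCAGGG in 4.94%, GAGAGA in 25.9%, and 57.0% and 62.4% found among the strongest of replicates 1 and 2. A distance over 2 kb left 390 regions with a median distance of 3996 bp, and over 500 bp the median was 2256 bp. Limiting the search to 75 bp on each side of the middle gave 1% for GCGCAGGG and 10.7% for GAGAGA, in less sequence. Reading only the 2500 strongest of a library gave 28% in replicate 1 and 31.2% in replicate 2, and 9.94% for regions chosen in replicate 1 and read in replicate 2. That last share was 10.4% where the overlap had to cover 50% of the region. Left to 1 library, the number of regions ran from 615 to 624 and the median distance from 2741 to 2816 bp. The mean GC ran from 38.3% to 39.3% and the share with GCGCAGGG from 2.24% to 2.28%. The share found in the other library ran from 13.5% to 13.8%. The pooled choice had 42.5% and 45.5%, but it used reads of the library it was read in, so these shares are not alike. The cause of the difference was not tested. Merging overlapping regions moved nothing beyond its limit. The build ce10 was not run, since no annotation of it was used here. No paired analysis was possible because there is 1 group. The unknown depth limits every weak region.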

Other observations

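After the data had been seen, all 8-base sequences were counted in the 50 strongest of the 600 regions and beside them in the others. The leading one was CGCAGGGA, in 12 of 50 (24%), in 3 of the 550 other regions and in 8 of 3221 lower-ranked far X regions (0.248%). It overlaps the core and its trailing A. A sequence that differs from the core in a single base, GCGAAGGG, was in 9 of 50, in 5 of the 550 others, in 10 of 3221 lower-ranked regions (0.31%), in 1 of 295 X regions near 5' ends and in 6 of 2111 autosomal far regions (0.284%). It was in 8 of the 15 strongest. The core or this variant was in 12 of the 15 strongest, the ZK899.6, K02D3.1 and fbxb-58 regions having the variant alone, and in 16 of 3221 lower-ranked regions (0.497%).

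The same count also gave other sequences. CACACACA was in 10 of 50 (20%), 6.36% of the other regions, 2.58% of the lower-ranked and 6.25% of the autosomal far regions. AGACGCAG, which shares CGCAG with the core, was in 9 of 50 (18%), 1.45% of the others and 6.3% of the autosomal far regions. TATCCACA was in 7 of 50 (14%), 1.27% of the others and 0.621% of the lower-ranked, and TGGATAAA in 8 of 50 (16%), 1.64% and 1.8%. These were the top of a long list of sequences counted on the regions that chose them, so they are given without a test.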
